A study of Mus musculus with 2 samples.

Results

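The 9 complement genes described here are *C1qa*, *C1qb*, *C1qc*, *C1s1*, *C4b*, *C3*, *Cfb*, *Serping1* and *Cd55*. They were taken by gene symbol from the 32285 genes of each library, of which 21805 had a UMI in the cells kept, and each of the 9 genes had UMIs in both libraries. Their UMIs, the counts of captured RNA molecules that carry a unique molecular identifier, were summed by cell class and library in cells with at least 800 detected genes. The comparison asks which cells of the palatal gingiva carried transcripts for the start of the classical pathway, for the alternative pathway and for the inhibitors, and how these levels stood after either ligand.

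The ligands were compared in female C57Bl6/J mice aged 8 to 12 weeks. CpG ODN, a synthetic DNA oligonucleotide ligand of TLR9, or *P. gingivalis* LPS, a ligand of TLR2/4, was applied to the palate in 3 µl at 1 µg/ml under an oral appliance for 1 h, and the palatal gingiva was harvested on day 4. Tissue was dissociated with collagenase II and then trypsin, and equal numbers of cells from 4 mice were pooled into 1 library for each ligand, so the values of single mice cannot be told apart. No untreated gingiva is analysed here, and each level therefore belongs to a tissue that had received a ligand. With 1 library per ligand, no test between the ligands was possible. All intervals (95%) cover counting error only, not the spread between mice or between cells.

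The CpG ODN library held 4888 cells with a median of 11077.5 UMIs, and the LPS library held 1277 cells with a median of 22680 UMIs. The libraries shared 5 barcodes, 1 of them among the cells kept. Clustering without the complement genes gave 27 clusters, of which 24 took a class from lists of marker genes. The classes held, in CpG ODN and LPS respectively, 3852 and 1037 epithelial-like cells, 284 and 69 B-like cells, 236 and 53 fibroblast-like cells, 80 and 26 T-like cells, 76 and 22 mural-like cells, 49 and 24 endothelial-like cells, 32 and 13 myeloid-like cells and 23 and 11 Schwann-like cells. The clusters without a class were 16 (132 and 0 cells) and 18 (107 and 4 cells), both with markers of B cells and plasma cells, and 23 (17 and 18 cells). Levels are given as CPM, the UMIs of a gene per 1000000 UMIs of the cells summed, a scale on which genes are compared only with caution because the assay reads the 3′ end of each transcript.

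The complement system is a cascade of plasma and tissue proteins that mark microbes for phagocytosis, attract leukocytes and can form pores in membranes. The classical pathway begins when C1q, built of chains from 3 genes, binds its target. The protease C1r then activates the protease C1s, which cleaves C4 and C2. The alternative pathway amplifies the cleavage of C3 through factor B and factor D. C1 inhibitor, encoded by *Serping1*, inactivates C1r and C1s, and decay accelerating factor, encoded by *Cd55*, breaks up the convertases on the cell surface. The liver makes most plasma complement, while tissue macrophages are known for C1q and stromal cells for several other components.

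The positions of the 9 genes were taken by gene identifier from the GENCODE M21 annotation of GRCm38, in which all are protein coding and all lie on the minus strand. *C1qa* (ENSMUSG00000036887, chr4:136895917-136898803), *C1qc* (ENSMUSG00000036896, chr4:136889804-136893065) and *C1qb* (ENSMUSG00000036905, chr4:136880129-136886187) lie within 18.7 kb of each other. *C4b* (ENSMUSG00000073418, chr17:34728380-34743882) and *Cfb* (ENSMUSG00000090231, chr17:34856374-34862518) share a chromosome with *C3* (ENSMUSG00000024164, chr17:57203970-57228136), and the 5′ end of *Cfb* lies 85 bases from the 3′ end of *C2*, which encodes the next protease of the classical pathway. *C1s1* (ENSMUSG00000038521, chr6:124530345-124542359) lies beside *C1ra*, with a span of 30.0 kb for the pair. *Serping1* (ENSMUSG00000023224) lies at chr2:84765387-84775444 and *Cd55* (ENSMUSG00000026399) at chr1:130439027-130462744. Shared sequence limits the count of 3 members. Of the 50-base windows in the last 500 bases of the transcript, 38.1% of those of *C4b* also occur in *C4a* and 18.0% of those of *C1s1* in *C1s2*, and the counted UMIs of *C4a* and *C1s2* were 14 and 4 in all cells. For *Cfb* 91.6% of these windows also occur in Gm20547, an overlapping gene model that is not among the genes counted.

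Promoters were found in the RefSeq table for 5 of the 9 members (GRCm38.p6). The 250 bases before the RefSeq start are printed for a pair of C1q genes, whose transcripts were held by the same cells, and for *C3*, the central component, whose level differed widely between fibroblast-like sub-clusters. Capitals mark GAGGAA, the core of PU.1 binding sites, in the C1q promoters, and TTNNGNAA, a loose form of the C/EBP site, in that of *C3*. The RefSeq start of *C1qc* lies inside the gene as GENCODE places it, so most of its window falls within that gene.
*C1qb*, minus strand, chr4:136886201-136886450: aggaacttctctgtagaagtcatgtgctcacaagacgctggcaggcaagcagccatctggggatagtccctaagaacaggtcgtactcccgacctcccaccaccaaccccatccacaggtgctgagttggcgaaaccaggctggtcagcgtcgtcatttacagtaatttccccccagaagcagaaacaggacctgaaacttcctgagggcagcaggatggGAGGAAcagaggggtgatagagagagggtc
*C1qc*, minus strand, chr4:136892915-136893164: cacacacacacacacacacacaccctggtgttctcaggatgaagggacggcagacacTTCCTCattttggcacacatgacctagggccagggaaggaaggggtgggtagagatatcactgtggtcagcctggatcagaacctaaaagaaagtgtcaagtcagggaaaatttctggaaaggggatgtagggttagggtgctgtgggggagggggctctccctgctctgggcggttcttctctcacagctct
*C3*, minus strand, chr17:57228137-57228386: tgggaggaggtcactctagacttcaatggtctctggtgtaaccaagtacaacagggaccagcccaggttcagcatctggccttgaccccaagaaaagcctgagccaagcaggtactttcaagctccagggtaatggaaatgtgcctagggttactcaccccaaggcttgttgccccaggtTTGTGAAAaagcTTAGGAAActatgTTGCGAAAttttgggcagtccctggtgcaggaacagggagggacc

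GAGGAA was present once in the *C1qb* promoter, 30 to 25 bases before the start, and once in the *C1qc* promoter on the other strand, 193 to 188 bases before it. Of 27025 promoters of this length, 23.1% held GAGGAA on either strand. The *C3* promoter held 3 copies of TTNNGNAA between bases 70 and 38 before the start, the third of which matched the motif on both strands, and 36.9% of all promoters held at least 1. The other 6 motifs, also searched on both strands, were TTCNNNGAA (in 7.18% of all promoters), GAAANNGAA (in 7.16%), TGANTCA (in 6.87%), CANCTG (in 44.5%), TATAAA (in 13.0%) and TTGCGCAA (in 0.170%). Of these, CANCTG occurred in the *C1qb* and *C3* promoters. TTNNGNAA also occurred once in the *C1qc* promoter and in both windows of *C1s1*, and the *Cd55* promoter held none of the 8. These are matches of letters only.

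Each gene had the same highest class in both libraries. The 3 C1q genes were highest in myeloid-like cells, *C1s1*, *C4b*, *C3*, *Cfb* and *Serping1* in fibroblast-like cells, and *Cd55* in B-like cells. Among 12590 genes with at least 100 UMIs, 5% were highest in myeloid-like cells of both libraries, 5.49% in fibroblast-like cells and 3.99% in B-like cells, against 3, 5 and 1 of the 9 members. Myeloid-like cells were 0.730% of all cells and held 94.6% of *C1qa* UMIs (92.5 to 96.2%), 94.9% of *C1qb* UMIs (92.8 to 96.6%) and 95% of *C1qc* UMIs (92.4 to 96.9%). Fibroblast-like cells were 4.69% of all cells and held between 75.7% of the UMIs (*C1s1*) and 88.7% (*C3*) of their 5 genes. *Cd55* was spread, with 24.4% of its UMIs in the B-like cells that were 5.73% of all cells.

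**Figure D1:**
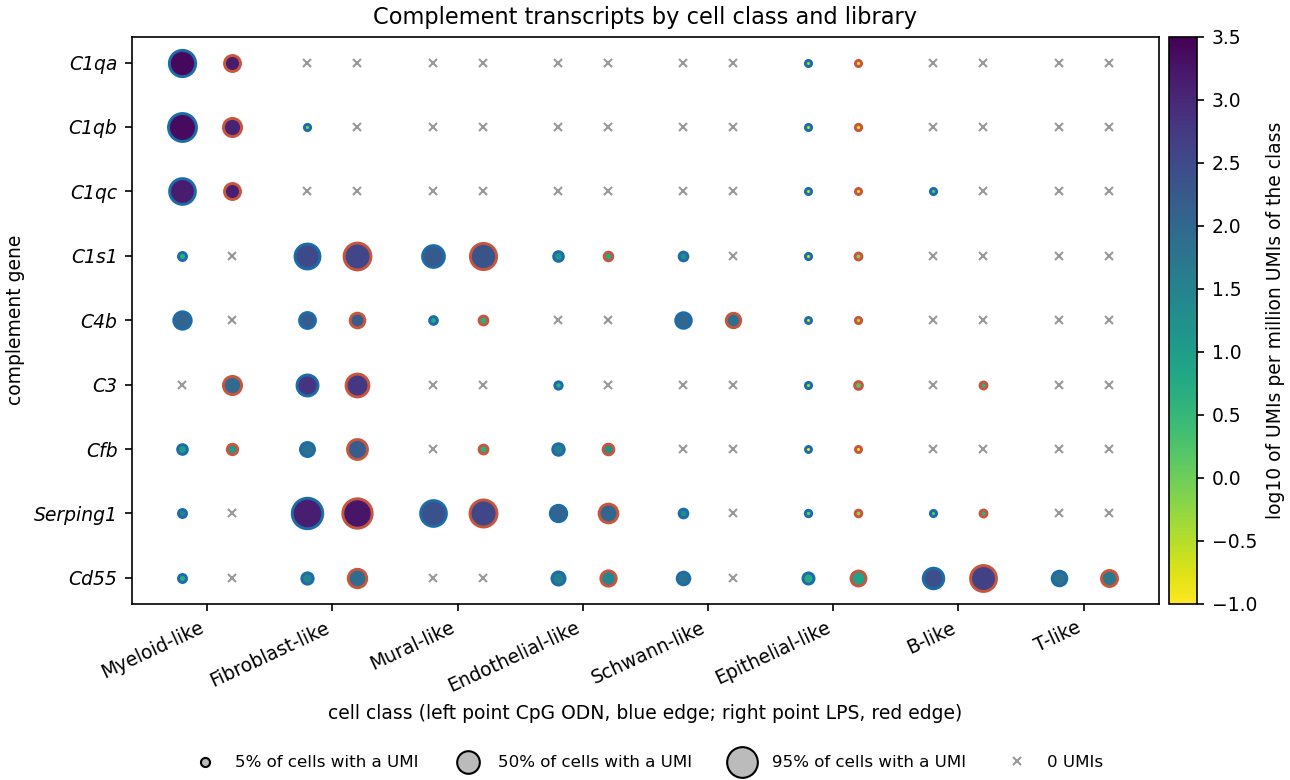
Complement transcripts in 8 cell classes. Each point is 1 gene (rows) in 1 class (columns) of the CpG ODN library (left, blue edge) or the LPS library (right, red edge); its fill gives log10 of the CPM, its area the share of cells with a UMI, and a cross marks 0 UMIs. The C1q genes stand almost alone in the myeloid-like column, 5 genes peak in the fibroblast-like column, and *Cd55* peaks in B-like cells.

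B-like cells, which should lack 8 of the 9 transcripts, gave the level of free RNA. Over these 8 genes they held 2 UMIs in 284 CpG ODN cells, with a median of 2149.5 UMIs per cell, and 2 UMIs in 69 LPS cells, with a median of 3157. For a gene without a UMI there, 3 counts would be 4.43 CPM in CpG ODN and 12.7 CPM in LPS. For *Cd55* the mural-like cells served, and they held no *Cd55* UMI among 76 and 22 cells, which allows up to 8.04 and 13.3 CPM.

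*C1qa*, *C1qb* and *C1qc* encode the A, B and C chains of C1q. In myeloid-like cells *C1qa* had 479 UMIs in CpG ODN, or 2506 CPM (2287 to 2741), and 131 UMIs in LPS, or 1512 CPM (1264 to 1794). *C1qb* had 438 UMIs, or 2292 CPM (2082 to 2517), and 102 UMIs, or 1177 CPM (959.8 to 1429). *C1qc* had 269 UMIs, or 1408 CPM (1244 to 1586), and 112 UMIs, or 1293 CPM (1064 to 1555). Only the *C1qc* intervals of the libraries overlapped. The next named class stood far lower for each gene in each library, at no more than 1.48 CPM.

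Within the myeloid-like class the C1q genes were carried by some cells and not by others. In CpG ODN 22 of 32 cells (68.8%, 50 to 83.9%) had at least 10 UMIs of the 3 genes together, and these held 1180 of 1186 C1q UMIs. In LPS 3 of 13 cells (23.1%, 5.04 to 53.8%) did, and they held 344 of 345. The chains came from the same cells, since 21 of the 22 and all 3 of the 3 cells had UMIs of each gene. The median UMI count per cell of the cells with C1q was 4920 and 9592. After thinning of every cell to 1500 UMIs the share of myeloid-like cells with a *C1qa* UMI was 67.0% in CpG ODN and 22.9% in LPS, so the deeper library had the lower share. Among cells with at least 10 C1q UMIs, a description by the readout itself, *C1qa* stood at 3757 CPM in CpG ODN and 4574 CPM in LPS, *C1qb* at 3388 and 3526 CPM, and *C1qc* at 2110 and 3910 CPM.

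Markers of macrophages were found in the same cells. *Csf1r*, the receptor of the macrophage growth factor, had UMIs in 22 of 22 and 3 of 3 cells with C1q, and *Mrc1*, a mannose receptor of tissue macrophages, in 21 and 3. *S100a8*, an alarmin abundant in neutrophils, had 0 UMIs in them. Of the myeloid-like cells, 1 of 32 in CpG ODN and 5 of 13 in LPS had at least 10 UMIs of *S100a8*, and none of these 6 cells had C1q. The level of C1q in the class therefore moved together with its make-up, and the part of that make-up in the difference between libraries was not tested.

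The myeloid-like cells fell into 4 sub-clusters that took no account of the C1q genes. The sub-cluster led by *Lyve1* and *Folr2*, genes of resident tissue macrophages, held 16 and 2 cells, all of them with at least 10 C1q UMIs. The sub-cluster led by *S100a8* and *S100a9* was mixed, with 5 of 7 and 1 of 6 cells above this number and no *S100a8* in those. In the sub-cluster led by *Krt17*, *Mfge8*, *Ccl17* and *Cd207*, which had the most dendritic and Langerhans cell markers, 1 of 7 and 0 of 2 cells reached it. The sub-cluster led by *Chil3* and *Ly6c2*, genes of blood monocytes, had 0 C1q UMIs in 2 and 3 cells. In the *Lyve1*-led cells alone *C1qa* stood at 3619 CPM in CpG ODN and 5617 CPM in LPS, so the order of the libraries was the opposite of that in the whole class.

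**Figure D2:**
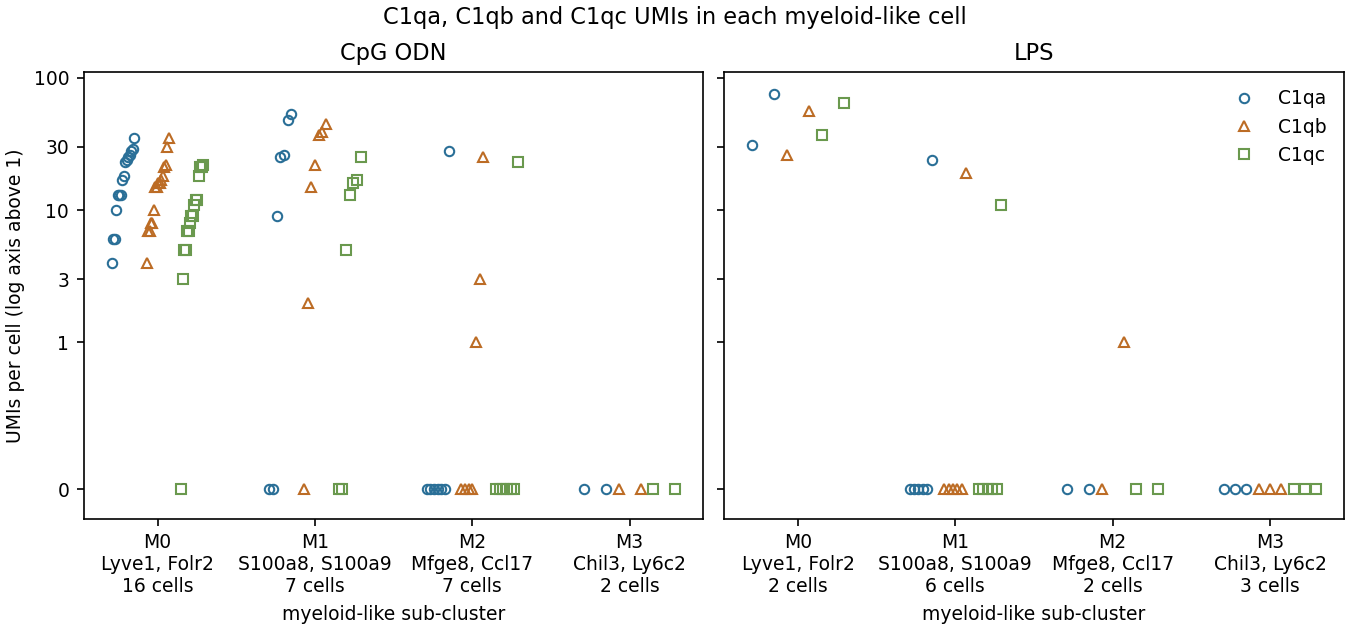
C1q transcripts cell by cell. The vertical axis gives the UMIs of *C1qa* (circles), *C1qb* (triangles) and *C1qc* (squares) in each myeloid-like cell (log axis above 1) for 4 sub-clusters, labelled with 2 of their leading genes, of the CpG ODN library (left, 32 cells) and the LPS library (right, 13 cells); cells of a group are set in rising order for display. The values fall into cells with several UMIs of all 3 genes and cells at or near 0.

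Outside the myeloid-like class C1q UMIs were rare. In CpG ODN 31 of 4856 other cells had a C1q UMI, 27 of them with a single one, while 2 epithelial-like cells of cluster 1 held 37 of the 71 UMIs. In LPS 11 of 1264 other cells had 13 UMIs, with at most 2 in a cell.

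*C1s1* encodes the protease C1s. In fibroblast-like cells it had 335 UMIs in CpG ODN, or 324 CPM (290.2 to 361), and 170 UMIs in LPS, or 358 CPM (306 to 416). In mural-like cells it had 64 UMIs, or 172 CPM (132 to 219), and 50 UMIs, or 221 CPM (164 to 291). Fibroblast-like cells were followed by mural-like cells in both libraries, and the intervals of these classes did not overlap within either library. All but 1 of the *C1s1* UMIs of mural-like cells came from cluster 20, led by *Acta2* and *Tagln* and with *Rgs5* and *Notch3*, markers of pericytes and vascular smooth muscle, where 35 of 64 and 14 of 16 cells had a UMI. Cluster 26, led by *Cnn1* and *Pcp4* and with no *Rgs5* or *Notch3* UMI, had 0 and 1 *C1s1* UMIs among 12 and 6 cells, which also had 3156 and 3608 CPM of *Krt14*.

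*C4b* encodes complement component C4, the substrate of C1s. In fibroblast-like cells it had 165 UMIs, or 160 CPM (136 to 186), in CpG ODN and 80 UMIs, or 169 CPM (134 to 210), in LPS. Few cells carried them. In CpG ODN 54 of 236 cells had a UMI (22.9%, 17.7 to 28.8%), in LPS 10 of 53 did (18.9%, 9.44 to 32.0%), and 1 cell held 43.8% of the LPS UMIs. Myeloid-like cells had 22 *C4b* UMIs in CpG ODN, or 115 CPM (72.1 to 174), 20 of them in the *Lyve1*-led sub-cluster, and 0 in LPS. The level in CpG ODN was 3.32-fold higher when LPS is set at 3 counts, over 13 cells, with a lower counting limit of 2.48. The *Lyve1*-led sub-cluster, with 16 and 2 cells, had 250 CPM in CpG ODN against a limit of 157 CPM in LPS. The lower counting limit of the ratio was 1.17 there. Schwann-like cells had 5 and 3 UMIs, or 105 CPM (33.9 to 244) and 79.0 CPM (16.3 to 231), and these few counts leave their place in the order of the classes unsettled.

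*C3* encodes the central component, on which the pathways meet. In fibroblast-like cells it had 692 UMIs in CpG ODN, or 669 CPM (620.2 to 721), and 278 UMIs in LPS, or 586 CPM (519 to 659). Cells with a UMI numbered 100 of 236 (42.4%, 36.0 to 48.9%) in CpG ODN and 27 of 53 (50.9%, 36.8 to 64.9%) in LPS, and after thinning the shares were 32.5% and 33.5%. Mural-like cells, the class closest to fibroblast-like cells in *C1s1* and *Serping1*, had 0 *C3* UMIs in both libraries. Myeloid-like cells had 0 *C3* UMIs in 32 CpG ODN cells and 8 UMIs in 4 of 13 LPS cells, or 92.3 CPM (39.9 to 182), of which 7 UMIs were in the 3 cells of the *Chil3*-led sub-cluster.

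*Cfb* encodes factor B, the protease of the alternative pathway convertase. It was the least counted member, with 68 UMIs in fibroblast-like cells in CpG ODN, or 65.8 CPM (51.1 to 83.4), and 75 UMIs in LPS, or 158 CPM (124 to 198). Cells with a UMI numbered 40 of 236 (16.9%, 12.4 to 22.4%) in CpG ODN and 20 of 53 (37.7%, 24.8 to 52.1%) in LPS, and after thinning in 8.54% and 14.4%. Endothelial-like cells came next, with 8 UMIs, or 35.5 CPM (15.3 to 70.0), and 3 UMIs, or 16.6 CPM (3.42 to 48.5), and their interval overlapped that of fibroblast-like cells in CpG ODN only.

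*Serping1*, the gene of C1 inhibitor, was the most counted member. In fibroblast-like cells it had 1359 UMIs in CpG ODN, or 1314 CPM (1245 to 1386), and 851 UMIs in LPS, or 1792 CPM (1674 to 1917). Cells with a UMI numbered 221 of 236 (93.6%, 89.7 to 96.4%) in CpG ODN and 46 of 53 (86.8%, 74.7 to 94.5%) in LPS, the widest spread over cells of any member. Mural-like cells had 244 CPM (196 to 299.5) and 353 CPM (280.2 to 439.8), all from cluster 20, where every one of the 16 LPS cells and 50 of the 64 CpG ODN cells had a UMI. Endothelial-like cells had 115 CPM (75.4 to 169) and 105 CPM (63.3 to 164). The 3 classes kept this order in both libraries with intervals that did not overlap.

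*Cd55* encodes decay accelerating factor, which is anchored in the membrane of the cell that makes it. In B-like cells it had 176 UMIs in CpG ODN, or 260 CPM (223 to 301), and 100 UMIs in LPS, or 422 CPM (344 to 514). Cells with a UMI numbered 115 of 284 (40.5%, 34.7 to 46.4%) in CpG ODN and 46 of 69 (66.7%, 54.3 to 77.6%) in LPS, and after thinning in 30.2% and 43.9%. In LPS fibroblast-like cells came next, at 84.3 CPM (60.2 to 115) against 29.0 CPM (19.6 to 41.4) in CpG ODN, and in CpG ODN 23 Schwann-like cells had 62.7 CPM on 3 UMIs (12.9 to 183). T-like cells had 63.3 CPM (36.2 to 103) and 50.1 CPM (20.1 to 103), and their intervals overlapped those of endothelial-like cells at 40.0 CPM (18.3 to 75.8) and 27.7 CPM (8.99 to 64.6). Epithelial-like cells had 403 and 287 UMIs but low levels, 6.15 CPM (5.56 to 6.78) and 8.17 CPM (7.25 to 9.18).

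The fibroblast-like cells were not uniform. They were divided into 8 sub-clusters (F0 to F7) without the complement genes, and F0 to F6 were given no cell type. F0 was led by the chemokine genes *Cxcl2*, *Ccl7* and *Cxcl1* with *Has1* and *Il6*, F2 by *Plac8* and *Lpl*, and F3 by *Chad*, *Hapln1* and *Myoc*. F1 was led by *Tnn*, *Tnc* and *Tnmd*, genes of tendon-like matrix, F4 by *Cilp* and *Grem1*, and F5 by *Cxcl14*. F6 was led by *Tagln* and *Acta2*, genes of contractile cells, and F7 by keratin genes, with 9 markers of basal keratinocytes, which go against the name of the class.

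*C3* divided these sub-clusters widely. In CpG ODN it stood at 1588 CPM (1447 to 1740) in F0, 708 CPM in F2 and 558 CPM in F3, and in LPS at 731 CPM (583 to 906), 1256 CPM and 469.8 CPM. In F1, F4 and F5 it stood at 107, 51.7 and 15.6 CPM in CpG ODN and at 118, 0 and 0 CPM in LPS. These LPS values rest on 3, 4 and 3 cells, and 3 counts would be 154 CPM in F4 and 138 CPM in F5. The 118 CPM of F1 in LPS were 3 UMIs in 1 cell, and the 51.7 CPM of F4 in CpG ODN were 5 UMIs in 1 cell. Summed over F0, F2 and F3 against F1, F4 and F5, *C3* was 14.9-fold higher in CpG ODN (10.1 to 22.9, 138 and 90 cells) and 16.9-fold higher in LPS (5.70 to 82.8, 28 and 10 cells). After thinning 50% and 6.91% of the cells of these 2 sets had a UMI in CpG ODN, and 53.5% and 3.28% in LPS. The sets were formed after the levels had been seen, and the folds are given as a description.

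*Serping1*, the gene of C1 inhibitor, did not divide them in this way. Over the same sets *Serping1* was 1.61-fold higher in CpG ODN (1.42 to 1.82) and 1.30-fold higher in LPS (1.01 to 1.70), with 1028 and 1097 CPM in F1, F4 and F5 together. *C1s1* was 1.78-fold (1.38 to 2.31) and 1.82-fold (0.987 to 3.68) higher in F0, F2 and F3. *Cd55*, the other inhibitor gene of the members, was 5.39-fold higher there in CpG ODN (1.66 to 27.8) on 27 and 3 UMIs. In LPS *Cd55* was 4.49-fold higher there (1.14 to 38.6) on 32 and 2 UMIs. *C4b* and *Cfb* were also higher in F0, F2 and F3 together. In CpG ODN *C4b* had 156 UMIs in F0, F2 and F3 and 6 in F1, F4 and F5, a 15.6-fold difference (7.0 to 43.1), and *Cfb* had 57 and 7 UMIs, a 4.88-fold difference (2.22 to 12.7). In LPS these genes had 21 and 17 UMIs in the first set and 0 in the second. The 21 *C4b* UMIs lay in 4 cells, 17 of them in F3 (12 in 1 cell) and 4 in 1 cell of F0, with 0 in F2, where *C3* was highest in LPS.

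**Figure D3:**
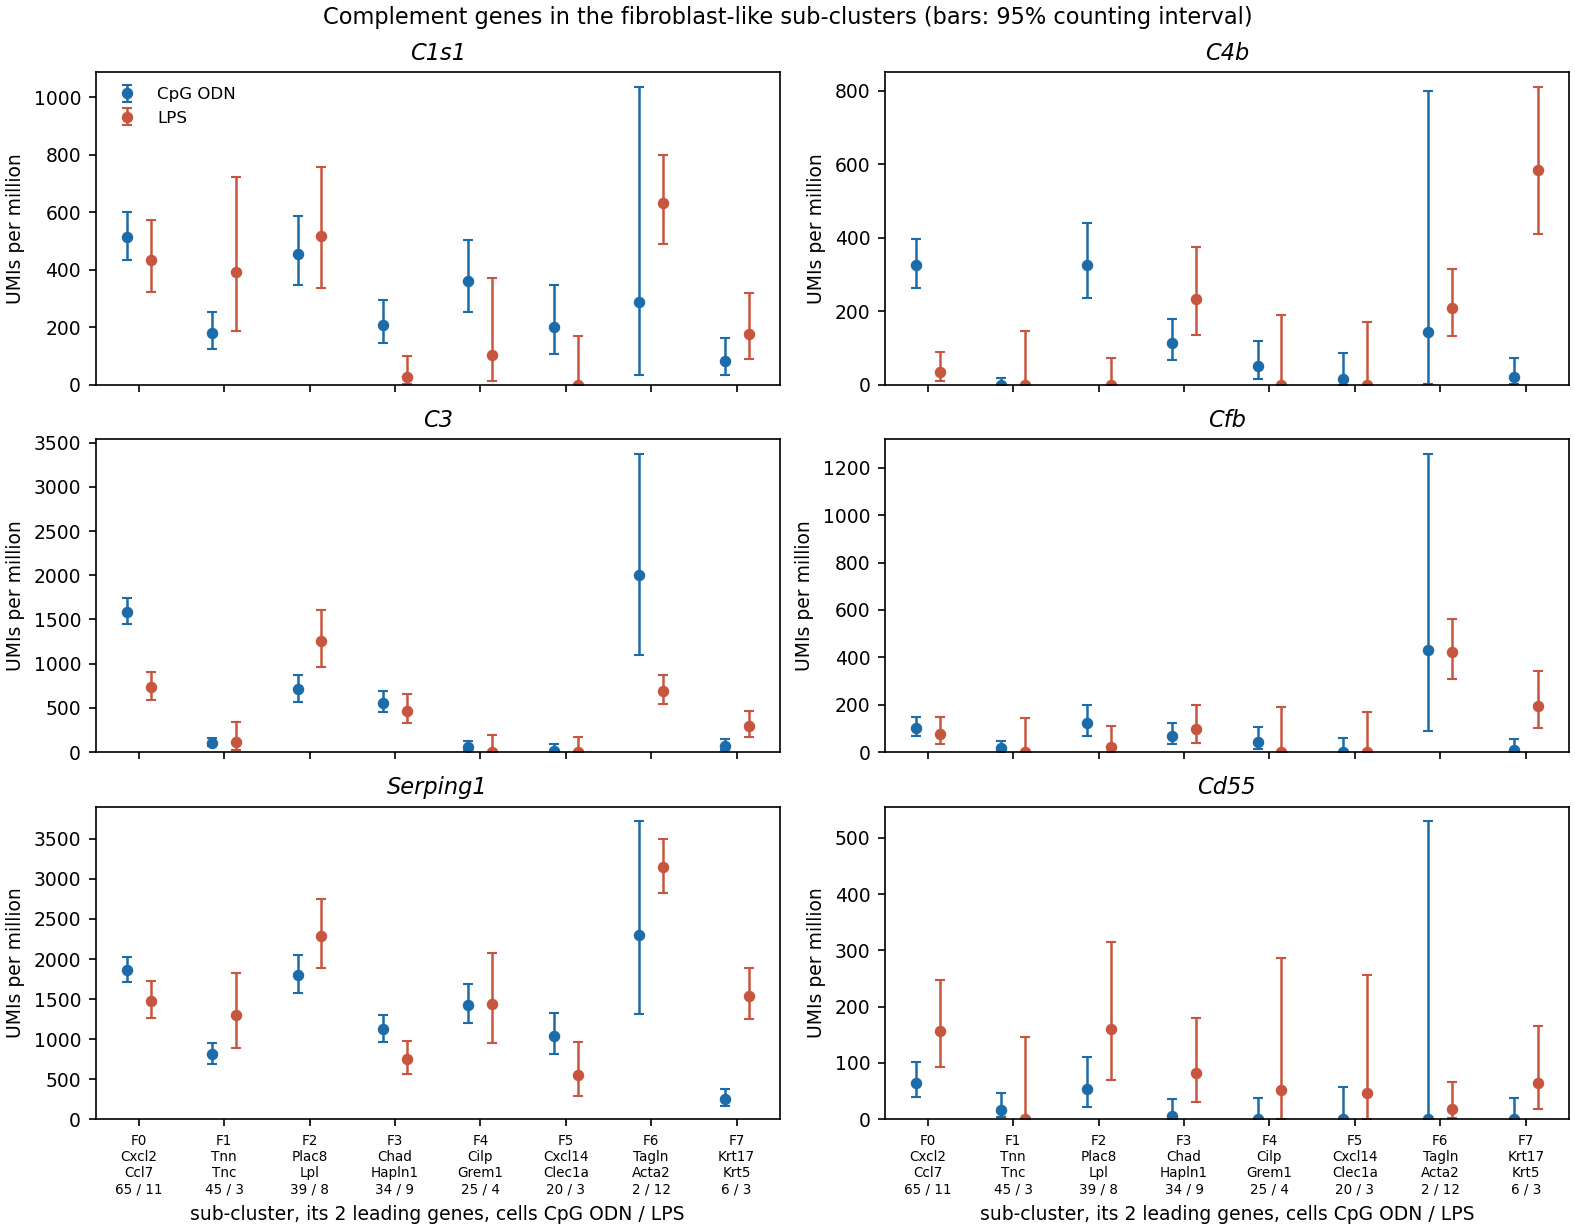
Levels of 6 complement genes in the 8 fibroblast-like sub-clusters. Points are CPM in the CpG ODN library (blue) and the LPS library (red) with 95% counting intervals, above the 2 leading genes and the cell numbers of each sub-cluster. In CpG ODN *C3* is low in F4 and F5, where *Serping1* is present. The highest *Cfb* and *Serping1* levels of each library lie in F6, which holds 2 CpG ODN cells.

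The libraries differed in how their fibroblast-like cells fell into these sub-clusters. F6 held 2 of 236 cells in CpG ODN and 12 of 53 in LPS, and F7 held 6 and 3 cells, with 3.39 times the median UMIs. In LPS F6 carried 46 of the 75 *Cfb* UMIs, or 421 CPM (308 to 561), and 344 of the 851 *Serping1* UMIs, or 3147 CPM (2824 to 3498). The 2 CpG ODN cells of F6 stood at 430 CPM of *Cfb* (88.7 to 1257) on 3 UMIs. Their *Serping1* level was 2294 CPM (1311 to 3725) on 16 UMIs. F7 carried 36 of the 80 *C4b* UMIs in LPS, 35 of them in 1 cell.

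The levels of the 2 libraries were then compared in the highest class of each gene. In fibroblast-like cells the CpG ODN/LPS ratio was 0.416 for *Cfb* (0.295 to 0.586), or 2.4-fold higher in LPS, and 0.733 for *Serping1* (0.672 to 0.8), or 1.36-fold higher in LPS. The ratios of *C1s1* (0.905, 0.750 to 1.10), *C4b* (0.947, 0.721 to 1.25) and *C3* (1.14, 0.993 to 1.32) had intervals that held 1. *Cd55* was lower in CpG ODN in B-like cells, with a ratio of 0.615 (0.478 to 0.794). In fibroblast-like cells its ratio was 0.344 (0.207 to 0.567) on 30 and 40 UMIs, and in T-like cells it was 1.26 on 16 and 7 UMIs, with an interval that held 1 (0.492 to 3.63).

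F6 and F7 were then left out, an alternative chosen after their high LPS values had been seen, so that the choice used the values compared. The ratio was then 1.23 for *Cfb* (0.712 to 2.24), 1.05 for *Serping1* (0.936 to 1.17), 1.18 for *C1s1* (0.932 to 1.51), 1.19 for *C3* (1.01 to 1.41) and 2.52 for *C4b* (1.60 to 4.19), in 228 and 38 cells. Leaving out F6 alone gave 0.797 for *Cfb* (0.507 to 1.28) and 0.942 for *Serping1* (0.850 to 1.05). Whether the share of F6 differs between the ligands or between the pooled mice cannot be told apart with 1 library each.

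Among genes with at least 20 UMIs in the class, 8.73% of 7638 genes in fibroblast-like cells differed more than 2-fold between the libraries, and 2 of the 6 members tested there did, *Cfb* and *Cd55*, both higher in LPS. In myeloid-like cells 23.7% of 2041 genes did, and of the 4 members with this many UMIs only *C4b* did. With 22 UMIs in CpG ODN and 0 in LPS, *C4b* reached the 20 UMIs through CpG ODN alone, so its place here carries no weight. In B-like cells 10.2% of 4622 genes did and *Cd55* did not. The median log2 ratio of all these genes was -0.02, -0.01 and 0.00 in the 3 classes. That of the members was -0.30 over 6 in fibroblast-like cells, 0.84 over 4 in myeloid-like cells, *C4b* among them, and -0.70 for *Cd55* alone in B-like cells. The ratios of the C1q genes in myeloid-like cells were 1.66 for *C1qa* (1.36 to 2.03), 1.95 for *C1qb* (1.57 to 2.44) and 1.09 for *C1qc* (0.870 to 1.37). A single LPS cell held 58.0%, 54.9% and 57.1% of the UMIs of these genes, and in the *Lyve1*-led cells alone the ratios were 0.644 (0.514 to 0.812), 0.722 (0.560 to 0.938) and 0.4 (0.311 to 0.517).

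**Figure D4:**
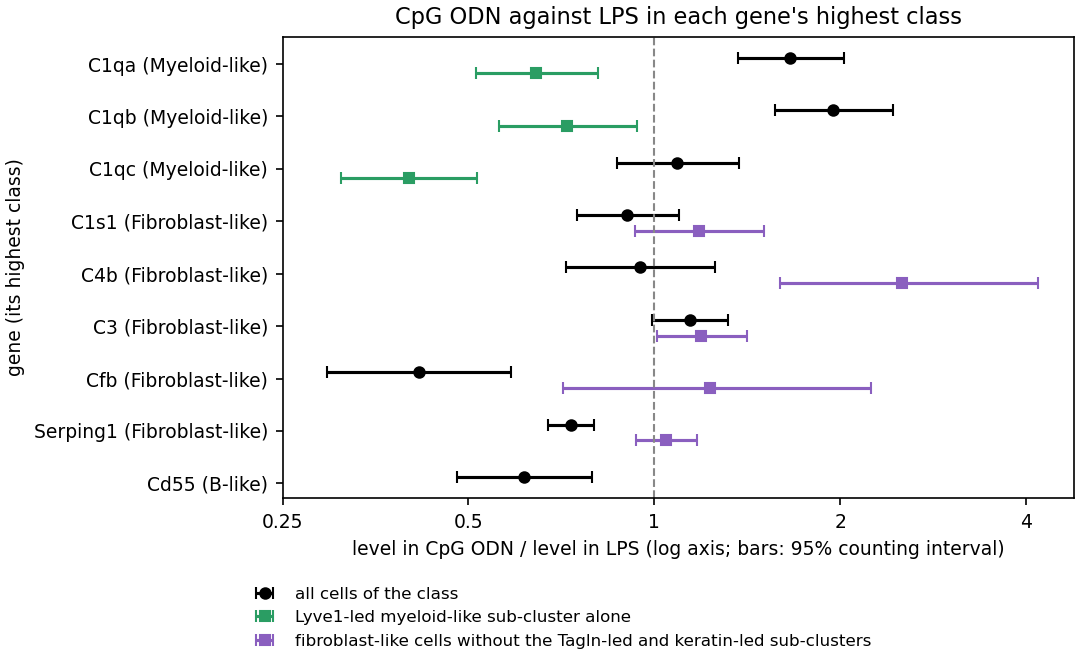
Ratio of the level in CpG ODN to that in LPS (log axis) for each gene in its highest class, with 95% counting intervals. Black circles use all cells of the class, purple squares leave out the fibroblast-like sub-clusters F6 and F7, and green squares use the *Lyve1*-led myeloid-like sub-cluster alone. The dashed line marks equal levels; Without F6 and F7 the *Cfb* and *Serping1* ratios cross it with intervals that hold 1, and those of *C4b* and *C3* leave it out, and the 3 C1q genes cross it in the *Lyve1*-led cells.

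In epithelial-like cells the secreted members had few UMIs, and their proportions to collagen UMIs differed between the libraries. These cells had 1342 UMIs of the collagen genes *Col1a1*, *Col1a2* and *Col3a1* in CpG ODN. At the proportions seen in fibroblast-like cells of that library these would come with 16.9 UMIs of *C1s1*, 35.0 of *C3* and 68.6 of *Serping1*, and 17, 36 and 75 UMIs were counted. In LPS the collagen genes had 70 UMIs, which would come with 1.42, 2.32 and 7.10 UMIs, and 22, 56 and 20 were counted. *C4b* and *Cfb* had 11 and 4 UMIs against 8.33 and 3.43 in CpG ODN, and 11 and 3 against 0.667 and 0.626 in LPS. The C1q genes did not follow collagen in CpG ODN, where *C1qa*, *C1qb* and *C1qc* had 30, 20 and 17 UMIs against 0, 0.0505 and 0.

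Of the 56 *C3* UMIs of LPS epithelial-like cells, 45 lay in 1 cluster. Cluster 15 was led by *Wfdc18*, *Ltf* and *Reg3g*, genes of secreted antimicrobial proteins, with *Krt8* and *Krt18*, keratins of simple epithelium, and held 90 cells in CpG ODN and 51 in LPS. *C3* had 0 UMIs there in CpG ODN, with a limit of 2.86 CPM, and 45 UMIs in LPS, or 40.4 CPM (29.4 to 54.0). With CpG ODN set at 3 counts the LPS level is 14.1-fold higher, and the lower counting limit of the fold is 11.0. The UMIs were spread over 20 of 51 cells with at most 4 in a cell. *C1s1* had 0 and 14 UMIs, and *Cd55* had 21 UMIs, or 20.0 CPM (12.4 to 30.6), and 83 UMIs, or 74.5 CPM (59.3 to 92.3), of which 1 cell held 17. *Serping1* had 2 and 9 UMIs. Of the fibroblast and myeloid markers looked at, these LPS cells had 3 collagen UMIs and 0 UMIs of *Tyrobp* and *Csf1r*. *Lyz2*, the lysozyme gene abundant in myeloid cells, stood apart from these markers and was higher in LPS as *C3* was, with 1841 UMIs, or 1652 CPM (1577 to 1729), in 14 of the 51 LPS cells, 682 of them in 1 cell, against 4 UMIs in 1 of the 90 CpG ODN cells. The part of *Lyz2*-rich cells in the *C3* level was not tested.

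The cells of cluster 15 were not alike in the libraries. *Reg3g* had a UMI in 4 of 90 cells in CpG ODN and in 28 of 51 in LPS, and *Krt8* in 39 and 40 cells, and the median UMIs per cell were 9545.5 and 17770. After thinning the share of cells with a *C3* UMI in LPS was 8.82%. The other epithelial-like clusters together had 11 *C3* UMIs in LPS and 36 in CpG ODN, and without cluster 15 the ratio of *Cd55* was 0.987 (0.831 to 1.18) against 0.752 (0.645 to 0.878) with it. Cluster 23, which took no name and was led by *BC037156* and *Odam*, a gene of the junctional epithelium that attaches gingiva to the tooth, had 8 *C3* UMIs, or 33.7 CPM (14.6 to 66.4), in 17 CpG ODN cells and 12 UMIs, or 19.7 CPM (10.2 to 34.4), in 18 LPS cells. Its *Cd55* level was 71.6 CPM (41.7 to 115) and 44.3 CPM (29.2 to 64.5), where 1 cell held 11 of the 17 UMIs in CpG ODN and another 9 of the 27 in LPS. Without these cells it was 28.1 and 31.9 CPM, and without the cell richest in *C3* the *C3* level was 21.7 and 17.7 CPM. In both libraries these levels, with or without those cells, were above those of every epithelial-like cluster other than 15.

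**Figure D5:**
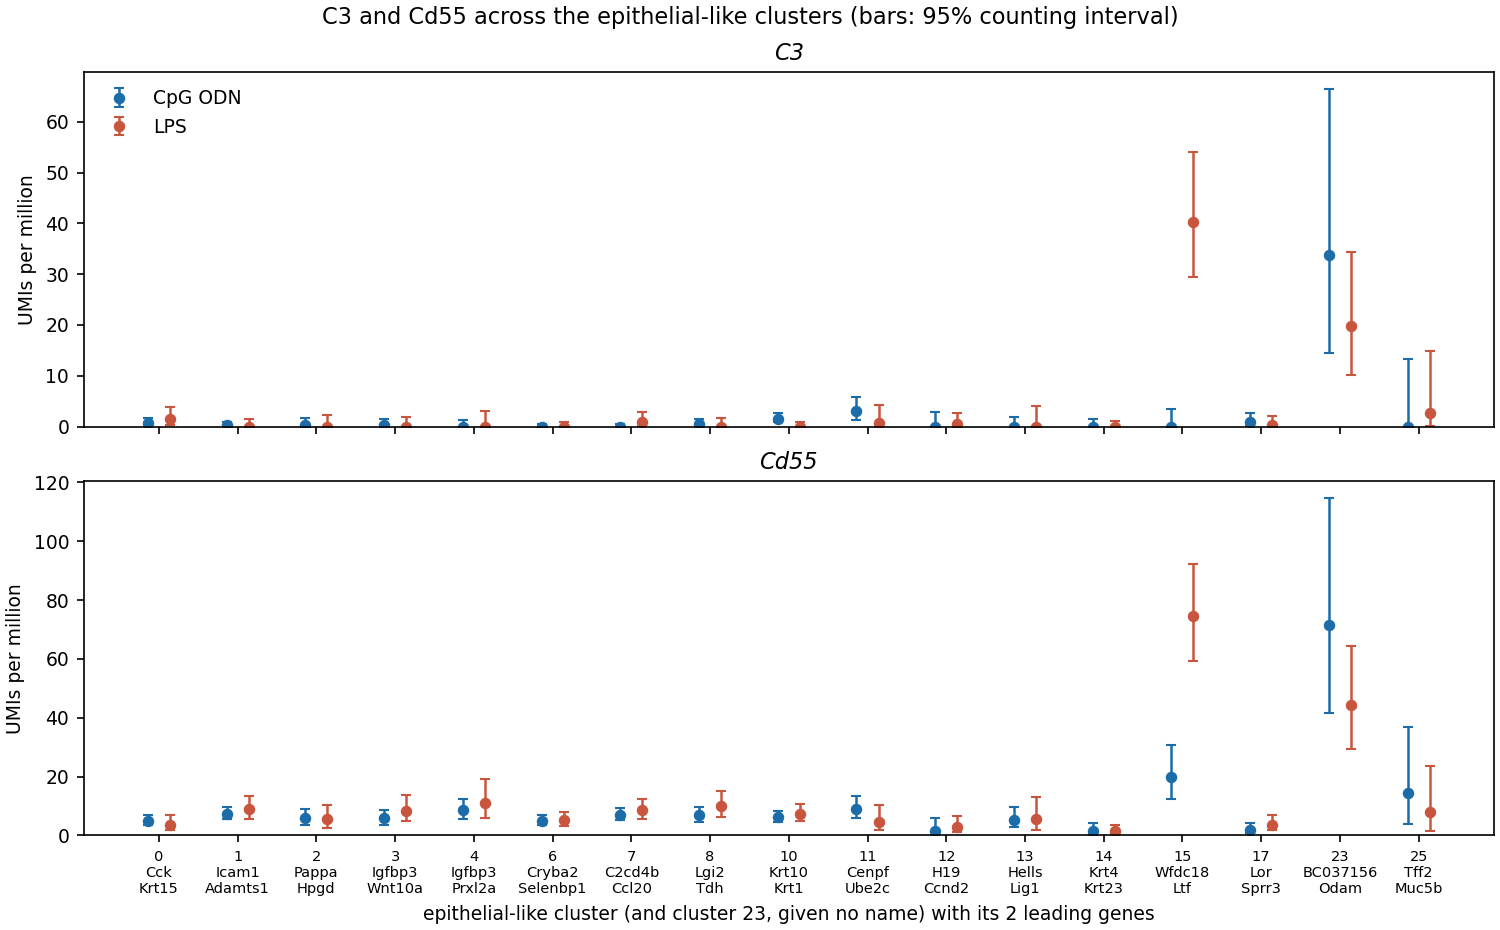
*C3* (top) and *Cd55* (bottom) in the epithelial-like clusters and in cluster 23. Points are CPM with 95% counting intervals in the CpG ODN library (blue) and the LPS library (red); the horizontal axis gives the cluster and its 2 leading genes. *C3* stands above the other clusters in cluster 15 of the LPS library and in cluster 23 of both.

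Of 43 other complement genes, 14 had at least 50 UMIs in 1 class of 1 library or in its unnamed clusters. Among the rest, 8 had 0 UMIs in all cells and 21 lay between. In the classical and lectin pathways the 4 genes with this many UMIs were highest in fibroblast-like cells. *C1ra*, the gene of the protease C1r that activates C1s, had 248 CPM in CpG ODN and 299 CPM in LPS. *Masp1*, a protease of the lectin pathway, had 195 and 124 CPM, and *Colec12*, a scavenger lectin, had 151 and 213 CPM. *C2* had 34.8 and 67.4 CPM on 36 and 32 UMIs, and reached the count through the 56 UMIs of LPS epithelial-like cells. Fibroblast-like cells held 37.8% of all *C2* UMIs. With C1q in myeloid-like cells and C1r and C1s in fibroblast-like cells, the transcripts of the C1 complex were divided between classes.

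The receptors lay largely with the leukocytes. *C3ar1* and *C5ar1*, the receptors of the anaphylatoxins C3a and C5a, were highest in myeloid-like cells, at 283 and 262 CPM in CpG ODN and 231 and 335 CPM in LPS. *Itgb2*, the shared chain of complement receptors 3 and 4, had 199 and 369 CPM in these cells. *Cr2*, the receptor of *C3* fragments on B cells, had 158 and 114 CPM in B-like cells, and in CpG ODN only 33.6% of its UMIs lay in that class, with 196 of its 318 UMIs in the unnamed clusters. *Cd93* was highest in endothelial-like cells, at 417 and 542 CPM.

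The other inhibitors named here had their highest level outside the fibroblast-like cells, although those cells held UMIs of each. *Clu*, the gene of clusterin, had 1523 CPM (CpG ODN) and 565 CPM (LPS) in endothelial-like cells, with a ratio of 2.70 (2.16 to 3.40), and ratios below 1 in fibroblast-like cells (0.284, 0.193 to 0.414) and mural-like cells (0.292, 0.138 to 0.586). Epithelial-like cells held 5552 of its 6076 UMIs in CpG ODN. *Cd59a*, which blocks the membrane pore, was highest in Schwann-like cells at 523 and 606 CPM, and *Cd59b*, its paralogue, had 13.4 and 17.7 CPM in mural-like cells on 5 and 4 UMIs. *Cr1l*, the gene of the membrane inhibitor Crry, was found in every class of both libraries, between 23.1 and 144 CPM. The genes at 0 were *Mbl1*, *Mbl2*, *Fcnb*, *Cfd*, *Hc*, *C6*, *C7* and *Cfi*, so the transcripts of factor D, factor I and the C5 chain were not detected at this depth.

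Across 43 groups of cells (cluster by library, at least 20 cells each), the genes whose levels were most like those of the members were compared as Pearson's r of log2(CPM + 10), a description over groups that share libraries and depth. Only 1 of these groups was myeloid-like, so no likeness is given for the C1q genes. Fibroblast-like cells made up 2 of the groups, and the values of their genes rest largely on those. *C1s1* was most like *Twist1*, *Lox* and *Ptgis* (0.958 to 0.973), *C4b* like *Lpar1*, *Apod* and *Postn* (0.937 to 0.979), *C3* like *Clec3b*, *Has1* and *Chad* (0.959 to 0.971) and *Serping1* like *Ddr2*, *Bgn* and *Fstl1* (0.977 to 0.980). *Cd55* had no close match, with at most 0.802 for *Dmxl1*. *Cfb*, with fewer than 200 UMIs, was not compared.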

How the data were processed

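For each library the authors deposited a filtered matrix from 10x 3′ sequencing that holds raw UMI counts by gene and barcode, not normalized, and whose header names Cell Ranger 4.0.0. The submitters' processing notes also name Seurat. The genome build of the alignment is not given in the sources used here, and coordinates were taken from GENCODE M21 on GRCm38 by gene identifier, which matched for 9 of 9 members.

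Barcodes under 800 detected genes were left out, with no filter on mitochondrial UMIs. The CpG ODN library had 72173148 UMIs in 6219 barcodes and the LPS library 38656738 UMIs in 2016. The counts of each cell were set to a sum of 10000, and the natural log of the value plus 1 was taken. From 2000 variable genes, chosen within each library without the 9 members and 43 other complement genes, 30 principal components and a graph of 15 neighbours were computed and clustered by the Leiden algorithm at resolution 1 (leidenalg 0.10.2, igraph 0.11.9, scikit-learn 1.9.0, numpy 2.4.6, scipy 1.17.1, Python 3.11.15). Markers were scored in each cluster if 20% or more of its cells had a UMI, at a CPM of 2 or more times that averaged over other clusters of a coarse division (resolution 0.05). A cluster took the class whose scored markers summed highest in log2 fold over the square root of the number listed. Clusters stayed unnamed with fewer than 3 scored markers, with more markers of another class than of their own among the 10 leading genes, or with any there of a class that also scored 3 markers. The same held for clusters of low UMI count without a marker of their own among these genes. Fibroblast-like and myeloid-like cells were divided again with 10 components and 15 and 8 neighbours. The rebuilt classes need not hold the cells of the paper's classes.

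Levels are summed UMIs per 1000000 (CPM) with exact Poisson intervals, shares have Clopper-Pearson intervals, and ratios have intervals from the exact conditional binomial distribution, all at 95%. Where a sum of cells held 0 counts, its limit was set at 3 counts. Shares were also given after thinning to 1500 UMIs per cell, for which at most 6 shallower cells of a class in a library were dropped. Doublets were kept, and scanpy 1.11.5 scores gave an alternative without 191 CpG ODN cells (3.91%) and 13 LPS cells (1.02%). The interval was also tried on simulated data, a check of the method whose outcome is not reported here.

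Every member is named. Of the other complement genes, those with at least 50 UMIs in 1 class of 1 library are named, except 1 that is not reported here, and the 3 genes most like each member with at least 200 UMIs, apart from the C1q genes. The members and lists were chosen with earlier results of these data known, the scoring rule and the settings of the second division were set after the data were seen, and no test was run.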

Additional observations from a re-analysis of the deposited data

Results flagged for a closer look

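*Serping1* was the only member whose CpG ODN/LPS ratio lay above 1 in a class and below 1 in others with counting intervals that left out 1. The ratio was 2.01 in epithelial-like cells (1.21 to 3.47) and 0.733 and 0.690 in fibroblast-like and mural-like cells. The epithelial-like levels were only 1.14 CPM in CpG ODN and 0.570 CPM in LPS. In B-like cells, which gave the level of free RNA, *Serping1* stood higher, at 1.48 and 4.22 CPM on 1 UMI in each library. The fibroblast-like ratio was 0.942 (0.850 to 1.05) without the *Tagln*-led sub-cluster and 1.05 (0.936 to 1.17) without the keratin-led one too, so its place below 1 was lost. This difference between classes was not tested, since each ligand has 1 library. The epithelial-like value rests on 75 UMIs in 29 of 3852 CpG ODN cells and 20 UMIs in 11 of 1037 LPS cells, of which 5 cells held 48 and 14. Collagen UMIs moved with it, at 20.5 CPM in CpG ODN and 1.99 CPM in LPS, and their part in the ratio was not tested.

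Barcodes with fewer than 800 detected genes, which entered no comparison, also held complement UMIs. In the 1331 such barcodes of the CpG ODN library these were 29 of *C1qa*, 21 of *C1qb*, 11 of *C1qc*, 9 of *C1s1*, 11 of *C4b*, 32 of *C3*, 4 of *Cfb*, 42 of *Serping1* and 219 of *Cd55*, the last in 175 barcodes. In the 739 of the LPS library, where hemoglobin genes held 74.8% of the UMIs, they were 8 of *C1qa*, 14 of *C1qb*, 6 of *C1qc*, 4 of *C4b*, 4 of *Serping1* and 7 of *Cd55*. These were marked because they exceed the 3 counts that a count of 0 allows.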

How the results depend on the processing

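No paired analysis was possible because 1 library stands for each ligand. Of 162 recomputed ratios and shares of UMIs, 117 stayed within the counting interval of the value reported, 39 left it, and 6 crossed 1 where the interval reported had left out 1. Of the 99 ratios alone 21 lay on the other side of 1, 8 of them among the 12 of *C4b*. The cause was not tested except where fewer cells or sub-clusters were used. The ratio of *Cd55* stayed below 1 under its 9 alternatives, and those of *Cfb* and *Serping1* under 11 of 12. The C1q ratios moved most, with nearly all LPS UMIs in 3 cells.

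With at least 1200 detected genes the ratios were 0.377 for *C1qa*, 0.438 for *C1qb* and 0.245 for *C1qc* (55 and 8 cells in a class rebuilt by the new clustering) and 0.401 for *Cd55*, which then had 8.65% of its UMIs in 23 and 32 B-like cells. With at least 200 genes the highest class held 86.0%, 84.1% and 87.1% of *C1qa*, *C1qb* and *C1qc* UMIs and 36.5% of *Cd55* UMIs. Classes taken from the signature gene with the most UMIs in each cell gave ratios of 6.44, 7.26 and 4.00 for *C1qa*, *C1qb* and *C1qc*, 2.05 for *C4b* and 0.235 for *Cd55*. The shares were then 84.3%, 81.0% and 82.0% for the C1q genes, 80.7% for *C1s1*, 63.3% for *C4b*, 85.0% for *C3*, 77.0% for *Cfb* and 8.24% for *Cd55*. Means over cells gave ratios of 2.62, 3.01 and 1.68 for the C1q genes and 0.937 for *C3*. Leaving out from each library the cell richest in the gene gave 3.27, 3.69 and 2.19, 1.4 for *C4b* and 1.45 for *C3*. Resolution 2 moved the *C1qa* share to 96.7%, clustering with the complement genes to 96.9%, and leaving out doublet calls moved that of *Serping1* to 89.5%.

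The remaining alternatives were chosen after the data had been seen. The *Lyve1*-led sub-cluster alone gave ratios of 0.644, 0.722 and 0.4001 for *C1qa*, *C1qb* and *C1qc*. Without the *Tagln*-led sub-cluster the ratios were 1.17 for *C1s1*, 0.797 for *Cfb* and 0.942 for *Serping1*, without the keratin-led one 1.63 for *C4b*, and without both 1.18 for *C1s1*, 2.52 for *C4b*, 1.23 for *Cfb* and 1.05 for *Serping1*. The LPS cells were the deeper, and their values are limited by the number of cells, with 11 in the smallest class.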
